A study of Rattus norvegicus with 9 samples.

Results

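The SNARE, complexin and synaptotagmin families carry out the fusion of vesicles with their target membranes. They were followed here in the vestibular epithelium of the rat, as all protein-coding genes whose symbol begins with Syt, Sytl, Stx, Stxbp, Vamp or Cplx and a digit, together with Snap25, Snap29 and Snap47, at a total of at least 10 counts over all libraries. Of 58 genes with such symbols, 55 reached the total, out of 32883 genes in the table, and 52 of these had enough counts to be tested. Sytl5, Syt10 and Cplx4 stayed below the total with 2, 0 and 2 counts over the 9 libraries, and Cplx3, Syt8 and Syt9 were members that were not tested because of low counts. The members were 16 synaptotagmins, 5 entries of synaptotagmin-like proteins, 14 syntaxins, 7 syntaxin-binding proteins, 7 VAMPs, 3 complexins and 3 SNAP proteins.

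A SNARE complex forms when a VAMP on the vesicle zippers together with a syntaxin and a SNAP protein on the target membrane, which pulls the membranes into contact. SM proteins guide the assembly, complexins bind the assembled complex, and synaptotagmins are membrane proteins with C2 domains, several of which bind calcium and trigger release. At conventional synapses the set is a syntaxin, SNAP-25, VAMP2, complexin 1 or 2 and synaptotagmin 1 or 2. The hair cell (HC), the mechanosensory cell of the inner ear, releases glutamate at ribbon synapses with otoferlin as its calcium sensor. The nerve endings that contact HCs, and the Schwann cells and other cells around them, have SNAREs of their own.

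The rats were male, of the Long-Evans strain, and their age in this experiment was not given in the sources used here. The IDPN-3wk and IDPN-7wk groups drank 20 mM 3,3′-iminodipropionitrile (IDPN), a nitrile that damages vestibular HCs, for 3 or 7 weeks, and Control rats drank plain water. A library held the 6 cristae and 2 utricles of 1 rat, and there were 3 libraries in each of 3 groups. The same Control libraries, which include rats killed at either time without a label that says which, served both comparisons, so the comparisons of IDPN-3wk and of IDPN-7wk with Control are tied to each other. Bulk tissue was measured, so fewer cells of a type and less RNA per cell cannot be told apart.

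Library totals ran from 31100118 to 46018385 counts. When set to a common depth, 3 libraries had fewer detected genes than the rest, a difference that no label explains. They were Control replicate 3 (15464 genes) and replicates 1 and 2 of IDPN-3wk (15498 and 15387 genes), while the range over the other 6 was 16834 to 17312. The summed level of 12 HC markers, such as Myo7a and Pou4f3, was 2167 to 2476 CPM (the share of a library's counts, on a scale corrected by TMM factors) in Control, 1101 to 1398 CPM in IDPN-3wk and 1064 to 1237 CPM in IDPN-7wk rats, and all 12 markers were detected. Of these markers, 3 were called lower at 3 weeks and 8 at 7 weeks. Marker sums of other cell types are given for the same libraries. The sums for supporting cells (8 genes) were 14044 to 14745, 8597 to 10659 and 6373 to 8425 CPM in the same order of groups. The sums for afferent neurons (7 genes) were 184 to 224, 131 to 140 and 122 to 163 CPM, with Isl1 the most abundant in each group. The 7 afferent genes did not move together, as 3 had positive log2 fold changes at 3 weeks and 1 at 7 weeks. Of them, 1 was called lower at 3 weeks and 0 at 7 weeks. The sums for Schwann cells (6 genes) were 7678 to 9699, 6473 to 8516 and 2725 to 5685 CPM, and those for macrophages (7 genes) 52.9 to 94.5, 40.1 to 116 and 161 to 207 CPM. Sums for endothelium and fibroblasts overlapped Control at both times, and those for melanocytes at 3 weeks, while at 7 weeks melanocyte markers were at 400 to 436 CPM against 442 to 475 CPM. The part of these shifts in the values of single members was not tested, and the ratios to HC markers given below are a description only.

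After 3 weeks of IDPN, Snap25 was the single member called lower among the 52 tested (1.92%), where a call is an adjusted p under 0.05 by edgeR's quasi-likelihood test and a fold change above 1.5. Over all 15517 genes tested, 1.65% were called in either direction, 1.21% lower and 0.438% higher. No member was called higher by edgeR or by DESeq2. At an unadjusted p under 0.05 by edgeR, 9 members were lower and 2 higher, beside 1339 and 1105 of all 15517 genes. After 7 weeks, Snap25, Syt1 and Syt6 were called lower than in Control rats, 3 of 52 members (5.77%), against 5.13% of all genes called in either direction, 3.13% called lower and 2.00% called higher. None was called higher by edgeR at 7 weeks, and 1, Stx11, was called higher by DESeq2. At an unadjusted p under 0.05 by edgeR, 7 members were lower and 3 higher at 7 weeks, beside 1665 and 1327 of all genes. The share of members called by edgeR was thus near that of all genes called in either direction at both times. All called members were lower, however, and 5.77% at 7 weeks was above the 3.13% of all genes called lower. DESeq2 called 6 of 55 members lower at 3 weeks, beside 2.88% of all genes. The median log2 fold change of the 52 members was -0.10 at 3 weeks and -0.05 at 7 weeks, beside medians of -0.000467 and 0.00970 for all genes. The 3-week median was -0.20 without IDPN-3wk replicate 1 and -0.19 without Control replicate 3. The 7-week median was -0.0011 without Control replicate 3, and its sign turned with at least 10 counts in every library (0.01) and without IDPN-7wk replicate 3 (0.02).

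Snap25 encodes the SNAP protein of neuronal exocytosis, which contributes a pair of helices to the complex and sits on the target membrane. Its level (ENSRNOG00000006037) was 32.8, 38.6 and 44.3 CPM in Control replicates 1, 2 and 3, then 9.78, 18.6 and 10.4 CPM in the IDPN-3wk rats and 10.1, 11.3 and 10.5 CPM in the IDPN-7wk rats. All 6 treated rats lay below all 3 Control rats, the highest of them being IDPN-3wk replicate 2. From 38.6 ± 5.7 CPM (SD, n = 3) in Control, Snap25 fell 2.98-fold at 3 weeks, with a log2 fold change of -1.58 (SE 0.256) and an adjusted p of 0.0147 by edgeR. At 7 weeks it fell 3.62-fold, with a log2 fold change of -1.85 (SE 0.257) and an adjusted p of 0.00259. Between the IDPN groups the difference was -0.28 on the log2 scale, with a 95% interval from -0.84 to 0.28. The call at 3 weeks was lost when only the Control and IDPN-3wk libraries were fitted (adjusted p = 0.0592 by edgeR) and without Control replicate 2 (adjusted p = 0.0643), with log2 fold changes of -1.57 and -1.58. As a difference of mean log2(CPM + 2) from Control, the 3-week value was -1.57 within the libraries with fewer genes detected (2 against 1) and -1.60 within the others (1 against 2).

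Syt1 encodes synaptotagmin 1, a calcium sensor for fast transmitter release. The Control replicates had 23.8, 14.2 and 21.9 CPM of Syt1 (ENSRNOG00000006426), the IDPN-3wk replicates 13.4, 11.1 and 8.06 CPM, and the IDPN-7wk replicates 4.07, 4.44 and 5.17 CPM. The 3 groups did not overlap, although Control replicate 2 was close to the highest IDPN-3wk rat. At 7 weeks Syt1 fell 4.38-fold from 20.0 ± 5.1 CPM (SD, n = 3), with a log2 fold change of -2.13 (SE 0.280, adjusted p = 0.00186 by edgeR). At 3 weeks the log2 fold change was -0.88 (SE 0.270) and did not pass the test (adjusted p = 0.149 by edgeR, 0.0369 by DESeq2). Between IDPN-7wk and IDPN-3wk rats it was -1.25 (SE 0.274), again without passing (adjusted p = 0.0922 by edgeR, 0.00126 by DESeq2).

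Syt6 encodes a synaptotagmin that is known for its part in the acrosome reaction of sperm. For Syt6 (ENSRNOG00000019163) the values were 38.9, 39.4 and 53.3 CPM in Control, 15.6, 28.2 and 18.9 CPM in IDPN-3wk and 13.6, 5.90 and 10.7 CPM in IDPN-7wk rats. These groups, too, did not overlap, and IDPN-7wk replicate 2 was the lowest of all. At 7 weeks Syt6 fell 4.37-fold from 43.9 ± 8.2 CPM (SD, n = 3), with a log2 fold change of -2.13 (SE 0.325, adjusted p = 0.00427 by edgeR). The log2 fold change at 3 weeks was -1.07 (SE 0.315, adjusted p = 0.129 by edgeR, 0.0217 by DESeq2), and that of IDPN-7wk against IDPN-3wk rats was -1.06 (SE 0.317, adjusted p = 0.198 by edgeR, 0.0311 by DESeq2). Snap25, Syt1 and Syt6 were called lower at 7 weeks under each of the 18 alternatives tried, with log2 fold changes from -1.96 to -1.72, from -2.32 to -1.98 and from -2.41 to -1.85.

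**Figure D1:**
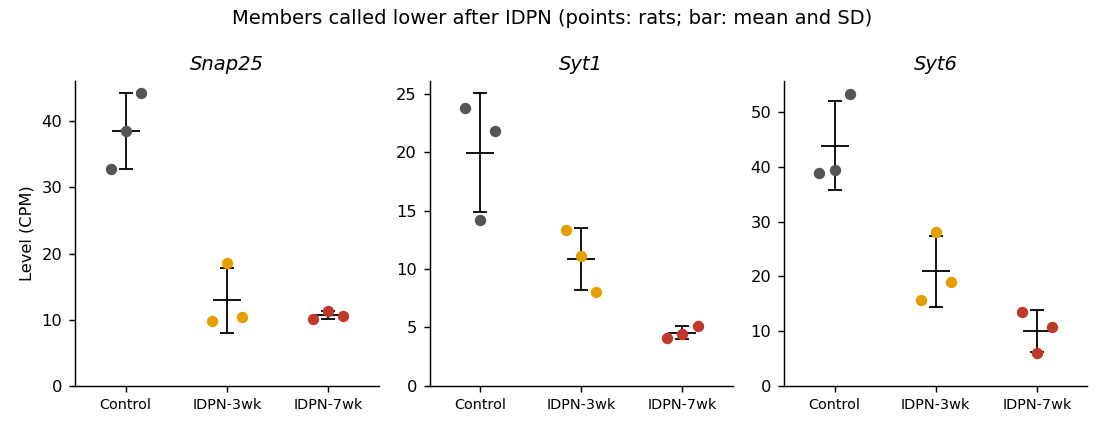
Level in CPM (vertical axis, from 0) of Snap25, Syt1 and Syt6 in Control, IDPN-3wk and IDPN-7wk rats. Points are single rats, long bars are means of 3 rats and the error bars are SD. The IDPN-7wk rats lie at 10.1 to 11.3 CPM for Snap25, 4.07 to 5.17 CPM for Syt1 and 5.90 to 13.6 CPM for Syt6, below all Control rats.

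The promoters of Syt1 and Syt6, the called members with an entry in the RefSeq promoter table, are shown because both genes were called lower at the same time. They are given 5′ to 3′ on the strand of the gene, from 250 bases before to 50 bases after its start in the GRCr8 assembly, where Syt1 is at chr7:46244164-46244463 on the minus strand and Syt6 at chr2:193781226-193781525 on the plus strand. These coordinates are not those of the older build to which the reads were mapped. Capitals mark each GGGCGG (GC box) and each CAGCTG (a form of the E-box, and the form meant by E-box below), searched on both strands. Other forms of the E-box, such as the CACGTG in the Syt6 window, were not searched and are not marked.
Syt1: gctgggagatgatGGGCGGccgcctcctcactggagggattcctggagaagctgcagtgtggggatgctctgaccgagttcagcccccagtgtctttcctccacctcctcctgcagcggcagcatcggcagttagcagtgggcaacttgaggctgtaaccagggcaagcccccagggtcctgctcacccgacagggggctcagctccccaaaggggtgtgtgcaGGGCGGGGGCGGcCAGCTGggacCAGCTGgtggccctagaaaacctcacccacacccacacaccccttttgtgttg
Syt6: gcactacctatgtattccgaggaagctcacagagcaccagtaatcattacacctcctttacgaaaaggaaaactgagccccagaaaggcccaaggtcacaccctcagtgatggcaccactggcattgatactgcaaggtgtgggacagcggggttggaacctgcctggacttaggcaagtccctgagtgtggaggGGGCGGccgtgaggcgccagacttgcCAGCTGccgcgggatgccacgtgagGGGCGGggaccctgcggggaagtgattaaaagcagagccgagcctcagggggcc

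Counted from 1 at the 5′ end of the window, the GC boxes of Syt1 start at 14, 225 and 231 and its E-boxes at 238 and 248, while Syt6 has GC boxes at 196 and 247 and an E-box at 222. The matches in each window do not overlap. Among the 40 members matched to a promoter of 300 bases by symbol, 26 (65.0%) had a GC box, against 33.1% of 33469 promoters in the table, and 12 (30.0%) had the E-box, against 15.1%. The members' promoters had a median GC content of 62.0%, against 51.7% for all, and both motifs consist mostly of G and C. Of the other motifs searched on both strands, CCAAT was found in 13 members (32.5%, against 37.5%), TATAAA in 3 (7.5%, against 14.2%), TGACGTCA, a cAMP response element, in 1 (2.5%, against 1.83%) and TGANTCA, the AP-1 site, in none (against 7.33%). The steady member Vamp2, described below, had 3 GC boxes and no E-box in its window. Other members without a call did have the E-box, such as Stx11 and Stxbp6, with positive log2 fold changes at 7 weeks, and Syt2, with a negative value. A match of letters is a description of the window and shows no binding.

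The other members of the neuronal fusion machinery showed no call by edgeR in any of the 3 comparisons in the main fit of all libraries, without a covariate. The whole group, with Snap25 and Syt1 included beside complexins, tomosyns and amisyn, held 14 tested genes. Of these, 1 was called lower at 3 weeks (Snap25) and 2 at 7 weeks (Snap25 and Syt1). Negative log2 fold changes were found for 12 and 10 of the 14, with medians of -0.42 and -0.30. Over all genes, 1.21% and 3.13% were called lower, and 50.05% and 48.9% had negative log2 fold changes. Syt2, the fast calcium sensor related to Syt1, had 32.3, 33.8 and 16.9 CPM in Control, 16.9, 16.0 and 18.0 CPM in IDPN-3wk and 16.3, 16.7 and 16.5 CPM in IDPN-7wk rats. Control replicate 3 lay among the treated rats, which were alike in both groups. The log2 fold changes of Syt2 were -0.70 (SE 0.244, adjusted p = 0.194 by edgeR) at 3 weeks and -0.75 (SE 0.244, adjusted p = 0.115) at 7 weeks. Without Control replicate 3, a library with fewer genes detected, Syt2 was called lower at both times, at log2 fold changes of -0.96 (adjusted p = 0.0280 by edgeR) and -1.002 (adjusted p = 0.00909). DESeq2 called it lower at 7 weeks (adjusted p = 0.0375) and not at 3 weeks. At 7 weeks edgeR also called it lower with the library set as a covariate (log2 fold change -0.88, adjusted p = 0.0365) and without the 3 libraries with fewer genes detected (adjusted p = 0.00174).

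Vamp2, the vesicle SNARE of neurons, was measured at 139, 146 and 112 CPM in Control, 142, 107 and 120 CPM in IDPN-3wk and 105, 124 and 116 CPM in IDPN-7wk rats. The groups overlapped, and the 95% intervals of the log2 fold change ran from -0.42 to 0.20 at 3 weeks and from -0.51 to 0.10 at 7 weeks, both within a 1.5-fold change (0.58 on this scale). Stx3, a syntaxin found at ribbon synapses, had 27.5, 26.1 and 26.7 CPM in Control, 30.3, 22.5 and 22.3 CPM in IDPN-3wk and 27.7, 31.1 and 28.6 CPM in IDPN-7wk rats. Its intervals were also within 1.5-fold, from -0.45 to 0.26 and from -0.23 to 0.48.

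Vamp1, a vesicle SNARE close to Vamp2, had 15.9, 19.5 and 18.9 CPM in Control, 16.2, 9.39 and 13.5 CPM in IDPN-3wk and 15.6, 17.7 and 15.6 CPM in IDPN-7wk rats, with log2 fold changes of -0.47 (95% interval -0.96 to 0.03) and -0.15 (-0.64 to 0.34). Cplx2, the complexin with the narrowest Control values, had 21.5, 20.9 and 21.9 CPM in Control, 20.6, 11.6 and 16.1 CPM in IDPN-3wk and 13.1, 20.8 and 15.3 CPM in IDPN-7wk rats. Every treated rat was below every Control rat for Cplx2, by log2 fold changes of -0.41 and -0.39 (SE 0.244 each) that did not pass (adjusted p = 0.448 and 0.450 by edgeR). Cplx1 gave 3.61, 2.57 and 7.77 CPM in Control, 4.69, 1.89 and 3.78 CPM in IDPN-3wk and 5.52, 5.98 and 4.71 CPM in IDPN-7wk rats, and its groups overlapped. The untested Cplx3, a complexin of ribbon synapses in the retina, was at 0 to 0.215 CPM.

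Stx1a, a syntaxin of neuronal exocytosis, was measured with little precision. It had 2.56, 4.20 and 3.12 CPM in Control, 5.72, 0.0337 and 3.81 CPM in IDPN-3wk and 6.50, 6.64 and 4.15 CPM in IDPN-7wk rats, so that 1 IDPN-3wk rat, replicate 2, was near 0. The 95% interval of its log2 fold change ran from -2.20 to 2.12 at 3 weeks and from -1.36 to 2.97 at 7 weeks. The other 8 libraries had 2.56 to 6.64 CPM. Stxbp6 (amisyn), which binds SNAREs through a VAMP-like domain and was the Stxbp gene with the smallest p at 7 weeks, had 24.7, 20.7 and 19.1 CPM in Control, 23.8, 17.4 and 23.5 CPM in IDPN-3wk and 34.4, 26.9 and 31.2 CPM in IDPN-7wk rats. The IDPN-7wk rats were above all others, at a log2 fold change of 0.52 (SE 0.186, adjusted p = 0.152 by edgeR).

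**Figure D2:**
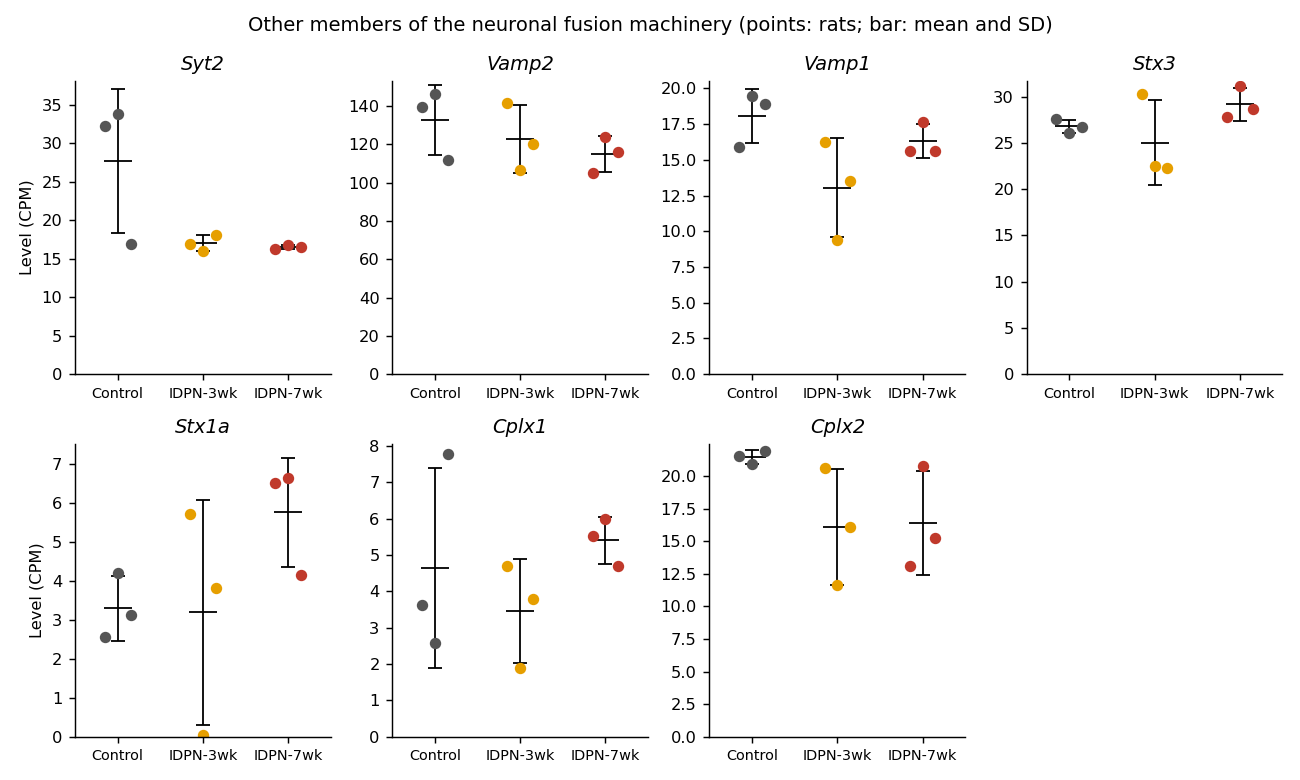
Level in CPM (vertical axes, from 0) of Syt2, Vamp2, Vamp1, Stx3, Stx1a, Cplx1 and Cplx2 in Control, IDPN-3wk and IDPN-7wk rats, with points for single rats, long bars for means of 3 rats and error bars for SD. None was called by edgeR in the main fit of all 9 libraries, without a covariate. Control replicate 3 has 16.9 CPM of Syt2 as the treated rats do, and IDPN-3wk replicate 2 has 0.0337 CPM of Stx1a.

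The lower levels of Snap25, Syt1 and Syt6 were set beside those of HC markers in the same libraries. As a percent of the Control mean, the summed HC markers were at 48.2 to 61.3% in IDPN-3wk and 46.6 to 54.2% in IDPN-7wk rats. Otof, which encodes otoferlin and is not among those markers, was at 41.7 to 55.5% and 46.02 to 52.2%. Snap25 was at 25.4 to 48.2% and 26.3 to 29.3%, Syt1 at 40.4 to 67.0% and 20.4 to 25.9%, and Syt6 at 35.7 to 64.2% and 13.4 to 30.9%. In the IDPN-7wk rats the ranges of these members, which were picked for being called lower, lay below that of the summed HC markers, whereas in the IDPN-3wk rats those of Syt1 and Syt6 overlapped it. The sum is weighted to its abundant genes such as Ptprq and Myo6, and single markers ran in IDPN-7wk rats from 14.5 to 25.1% for Slc17a8 to 74.3 to 89.7% for Myo7a. The range of Slc17a8 lay below that of Snap25 and overlapped those of Syt1 and Syt6, and that of Calb2 overlapped those of all 3 members. Vamp2 was at 80.3 to 107% and 79.1 to 93.3% of its Control mean, above the HC markers in both groups.

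Per 1000 CPM of summed HC markers, Snap25 stood at 15.2 to 20.1 CPM in Control, 7.55 to 13.3 CPM in IDPN-3wk and 8.51 to 10.6 CPM in IDPN-7wk rats, without overlap between Control and either IDPN group. On this scale Syt1 was at 5.73 to 11.0 CPM in Control, 7.32 to 10.3 CPM in IDPN-3wk and 3.52 to 4.17 CPM in IDPN-7wk rats, and Syt6 at 15.9 to 24.2, 12.1 to 20.2 and 5.55 to 11.7 CPM. The Otof ratio was 283 to 330 in Control, 266 to 301 in IDPN-3wk and 296 to 313 in IDPN-7wk rats. The Vamp2 ratio lay above the Control range of 50.9 to 64.3 in every treated rat (76.2 to 116). Any gene with a steady level gives such a rise, because the marker sum fell. The Stx3 ratio rose likewise, from 10.5 to 12.7 in Control to 16.1 to 23.4 in IDPN-3wk and 23.1 to 29.3 in IDPN-7wk rats. These ratios are a description, with no test, and the markers do not all come from HCs of the same type.

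**Figure D3:**
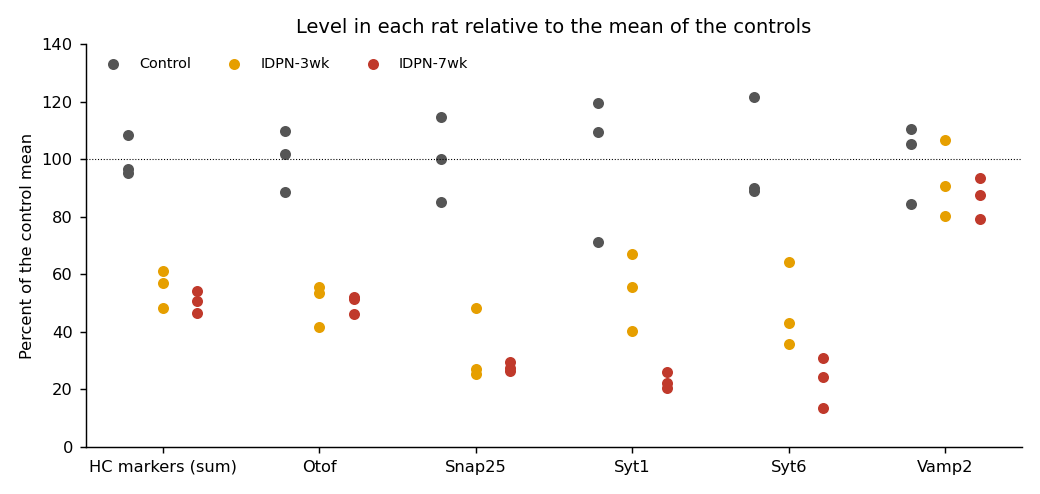
Level in each rat as a percent of the Control mean (vertical axis, from 0; the dotted line is 100%) for the sum of 12 HC markers, Otof, Snap25, Syt1, Syt6 and Vamp2. Points are single rats. In IDPN-7wk rats the HC markers lie at 46.6 to 54.2%, Snap25 at 26.3 to 29.3%, Syt1 at 20.4 to 25.9% and Syt6 at 13.4 to 30.9%.

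Outside Syt1 and Syt6, the synaptotagmins showed no call by edgeR in the main fit of all 9 libraries, without a covariate. Many were near the limit of detection. In the group of other synaptotagmins (14 members, 12 tested, Syt6 among them) 0 were called at 3 weeks by edgeR. An unadjusted p under 0.05 by edgeR was reached by 4, beside 2444 of all 15517 genes. DESeq2 called Syt3, Syt6 and Syt11 lower at 3 weeks, beside 2.88% of all genes. At 7 weeks 1 was called, Syt6, beside 3.13% of all genes called lower. Negative log2 fold changes at 7 weeks were found for 10 of the 12, beside 48.9% of all genes, with a median of -0.50. Of the following, named after their values were seen, Syt3, a synaptotagmin of synapses, was at 7.11 to 9.93 CPM in Control, 2.67 to 4.86 CPM in IDPN-3wk and 5.40 to 5.92 CPM in IDPN-7wk rats, with no overlap between Control and either group. Its log2 fold changes were -1.18 (adjusted p = 0.0936 by edgeR) and -0.60 (adjusted p = 0.322). Syt11, which does not bind calcium, was at 72.6 to 120 CPM, 38.1 to 61.2 CPM and 52.2 to 110 CPM, and Syt13, which also lacks calcium binding, at 68.5 to 87.3 CPM, 58.0 to 102 CPM and 41.1 to 63.5 CPM. For Syt13 the change at 7 weeks was -0.57 on the log2 scale (adjusted p = 0.213 by edgeR) and was called lower without the 3 libraries with fewer genes detected. Syt4 was at 1.54 to 3.21 CPM in Control, 0 to 0.646 CPM in IDPN-3wk and 0.0506 to 0.925 CPM in IDPN-7wk rats, a separation of the groups that did not pass the test at either time (adjusted p = 0.333 and 0.482 by edgeR).

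Syt5 was higher in each IDPN-3wk rat than in any Control rat, with 4.84 to 7.61 CPM in Control, 9.41 to 18.6 CPM in IDPN-3wk and 4.81 to 8.06 CPM in IDPN-7wk rats, at a log2 fold change of 0.98 (adjusted p = 0.189 by edgeR). Syt7, a slow calcium sensor, was at 0.310 to 1.25 CPM in Control and at 0 to 0.387 CPM in treated rats. The untested Syt8 and Syt9 reached at most 0.326 and 0.277 CPM. A level of 3 counts corresponded to 0.0611 to 0.101 CPM, so single libraries of these genes rest on a few counts, and reads amplified by PCR without molecular identifiers make that a floor for counting error only.

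Synaptotagmin-like proteins bind Rab27 on secretory vesicles. None of the 5 entries tested was called by edgeR. An unadjusted p under 0.05 by edgeR was reached by 2 at 3 weeks and 1 at 7 weeks, beside 2444 and 2992 of all 15517 genes. DESeq2 called Sytl1 lower at 3 weeks alone, beside 2.88% of all genes called lower at that time. Sytl1, the entry with the smallest p at 7 weeks, had 9.06, 9.52 and 10.9 CPM in Control, 6.13, 4.04 and 5.60 CPM in IDPN-3wk and 5.60, 6.21 and 7.32 CPM in IDPN-7wk rats. All treated rats were below all Control rats for Sytl1, with log2 fold changes of -0.90 (SE 0.267, adjusted p = 0.131 by edgeR) and -0.62 (SE 0.266, adjusted p = 0.232). Sytl3 was at 39.5 to 49.6 CPM in Control and 39.0 to 51.7 CPM in treated rats. The symbol Sytl2 covers 2 identifiers, of which ENSRNOG00000030776 was at 7.68 to 16.8 CPM over all libraries and ENSRNOG00000049878 was at 0 in every IDPN-3wk rat and at 0 to 1.32 CPM in the others, so no fold is given for it. Reads shared by such entries may have been divided between them.

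Plasma membrane SNAREs of general secretion, such as Stx4 and Vamp3, and their SM proteins numbered 9. None was called at either time by edgeR. An unadjusted p under 0.05 by edgeR was reached by 1 at each time, beside 2444 and 2992 of all 15517 genes at 3 and 7 weeks. DESeq2 called none at 3 weeks and Stx11 higher at 7 weeks, beside 550 of all 19717 genes called higher. The median log2 fold changes of the 9 members were 0.02 and 0.22. Stx11, a syntaxin of immune cells needed for the release of cytotoxic granules, had 2.13, 2.79 and 1.21 CPM in Control, 3.82, 1.78 and 3.23 CPM in IDPN-3wk and 3.99, 6.62 and 5.49 CPM in IDPN-7wk rats. The IDPN-7wk rats were above the other libraries, at a log2 fold change of 1.39 (SE 0.477, adjusted p = 0.132 by edgeR, 0.0259 by DESeq2). Macrophage markers were higher in the same IDPN-7wk rats (161 to 207 CPM, against 52.9 to 94.5 CPM in Control, with 1 of 7 markers called higher), and their part in the Stx11 value was not tested. Vamp3, a VAMP of recycling vesicles in most cells, was at 113 to 123 CPM in Control, 130 to 148 CPM in IDPN-3wk and 119 to 127 CPM in IDPN-7wk rats, within intervals of 0.02 to 0.42 and -0.13 to 0.28 on the log2 scale. All IDPN-3wk rats were above Control for Vamp3, with an unadjusted p of 0.0337 and an adjusted p of 0.269 by edgeR. Stxbp3 was at 101 to 109 CPM in Control and 86.7 to 118 CPM in treated rats.

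SNAREs of the Golgi, ER, endosomes and lysosomes made up 12 members, all tested and none called by edgeR or DESeq2 against Control. An unadjusted p under 0.05 by edgeR was reached by 1 at each time, beside 2444 and 2992 of all 15517 genes. The median log2 fold changes of the 12 members were -0.01 and 0.17. For 7 of the 12 at 3 weeks and 6 at 7 weeks the 95% interval lay within 1.5-fold, as it did for 16 and 12 of all 52 members (30.8% and 23.1%) and for 29.2% and 27.5% of all genes. Stx12, an endosomal syntaxin, was at 104 to 119 CPM in Control, 115 to 120 CPM in IDPN-3wk and 109 to 126 CPM in IDPN-7wk rats, with intervals of -0.13 to 0.29 and -0.12 to 0.31. Stx7, a syntaxin of late endosomes named after its values were seen, had 12.1, 10.1 and 5.49 CPM in Control, 9.13, 7.34 and 12.7 CPM in IDPN-3wk and 18.5, 12.4 and 17.7 CPM in IDPN-7wk rats (log2 fold change at 7 weeks 0.81, adjusted p = 0.210 by edgeR). Snap29 had 42.3, 42.3 and 36.4 CPM in Control and 39.4 and 51.5 CPM in IDPN-3wk replicates 2 and 3, while IDPN-3wk replicate 1 had 13.5 CPM.

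**Figure D4:**
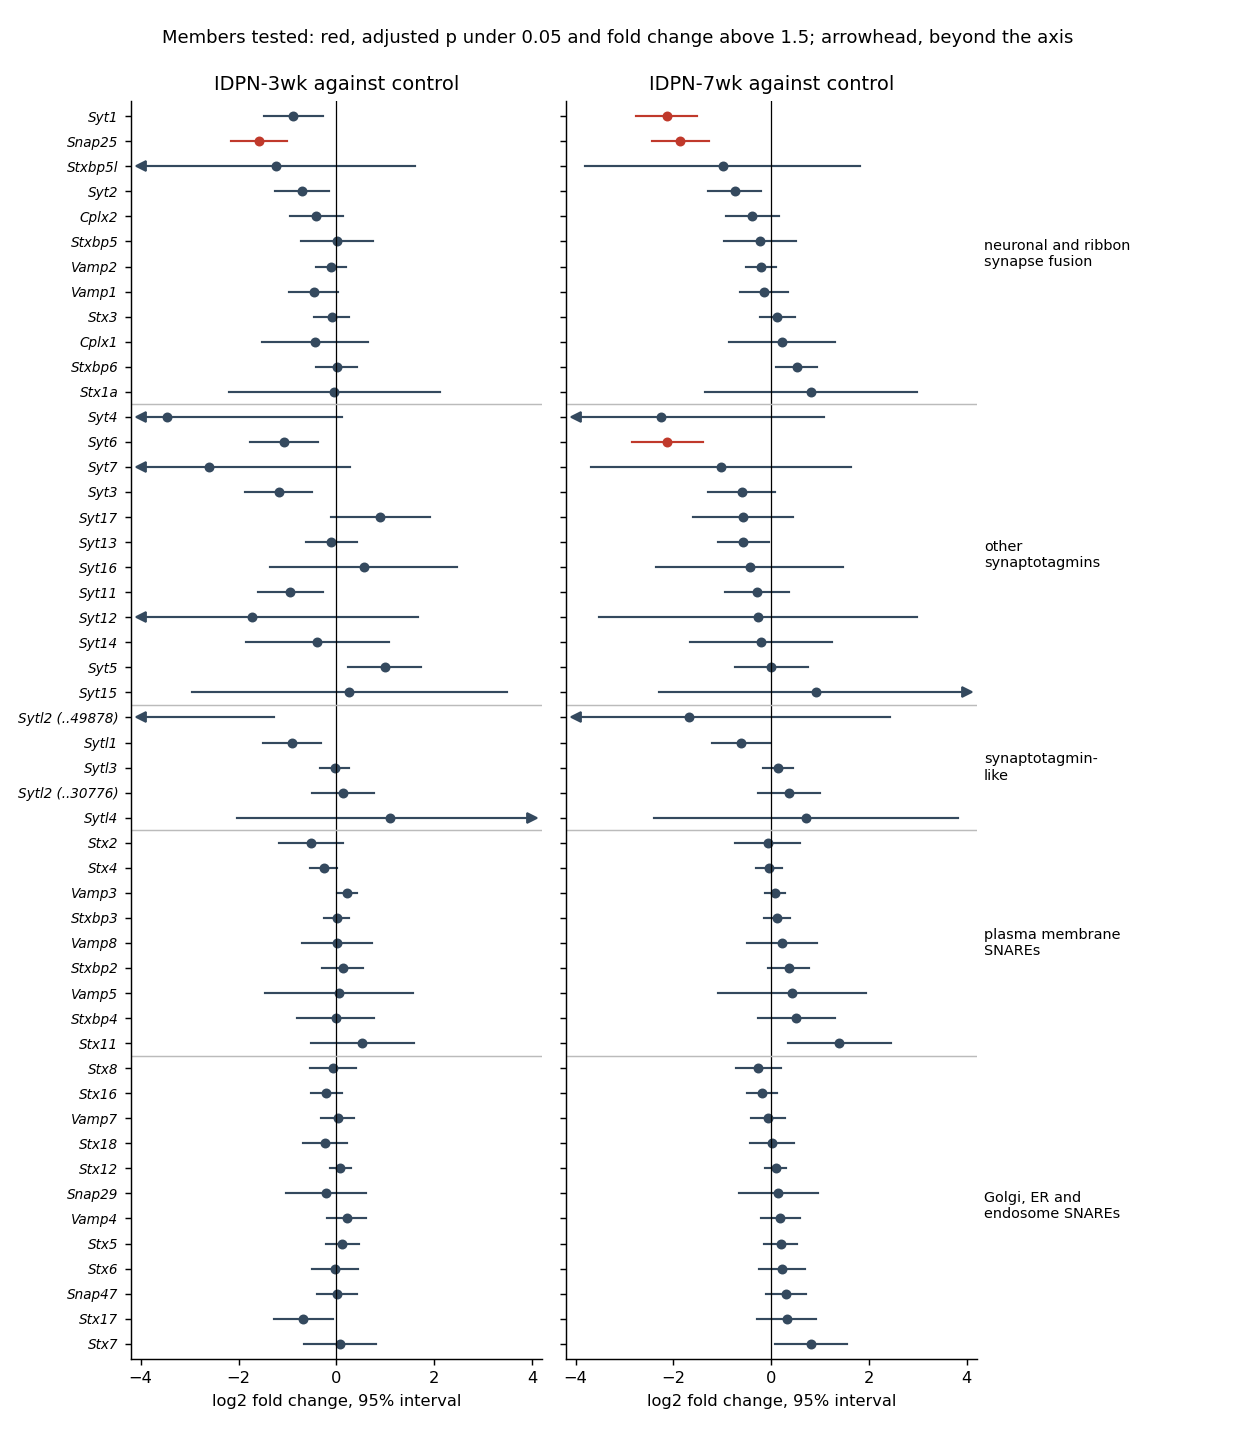
Log2 fold change (horizontal axis) and 95% interval of 50 of the 52 members tested, grouped by role, for IDPN-3wk against Control (left) and IDPN-7wk against Control (right), from edgeR. Red marks members called, Snap25 at 3 weeks and Snap25, Syt1 and Syt6 at 7 weeks. Arrowheads mark intervals beyond the axis, which belong to genes of few counts, and a fitted value beyond it has no point.

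Treated and Control rats did not overlap for 12 members that were lower and 3 that were higher at 3 weeks (23.1% and 5.77% of 52), beside 10.9% and 8.78% of all genes. At 7 weeks this held for 13 lower and 7 higher members of the 52, beside 17.1% and 17.2% of all genes. Between the sets of libraries with more and with fewer genes detected, which can both be used at 3 weeks only, 31 of 52 members had a difference from Control of the same sign in both sets, 19 of them lower, and 21 had opposite signs.

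When IDPN-7wk were tested directly against IDPN-3wk rats, no member was called by edgeR, beside 0.483% of all genes called in either direction. An unadjusted p under 0.05 was reached by 6 of 52 members, beside 13.8% of all genes, 4 of them lower in IDPN-7wk rats (Syt1, Syt5, Syt6, Syt17) and 2 higher (Stx17, Stxbp6). DESeq2 called 3 lower (Syt1, Syt6, Syt17) and 1 higher (Stx17). Stx17, a syntaxin of autophagosomes, was at 9.01, 13.5 and 9.09 CPM in Control, 5.23, 5.79 and 8.79 CPM in IDPN-3wk and 13.9, 13.6 and 12.0 CPM in IDPN-7wk rats, with a log2 fold change between the IDPN groups of 0.99 (SE 0.275, adjusted p = 0.167 by edgeR). Syt17 was at 4.75 to 9.09 CPM in Control, 5.66 to 22.9 CPM in IDPN-3wk and 4.09 to 5.32 CPM in IDPN-7wk rats. The median log2 fold change of the members between IDPN-7wk and IDPN-3wk rats was 0.22, beside 0.00819 for all genes. It was 0.11 with the library set as a covariate, 0.15 to 0.17 without 1 of the IDPN-3wk libraries (the lowest without replicate 2) and 0.04 without the 3 libraries with fewer genes detected.

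Other genes of regulated exocytosis, a list of 77 genes in the table with calcium sensors, priming factors, Rab3 and Rab27 with their effectors, active zone proteins and vesicle proteins, were tested for 70. At 3 weeks 1 was called, Otof, which was lower (1.43%, beside 1.65% of all genes called in either direction). At 7 weeks 5 were called lower and 1 higher (8.57% in all, beside 5.13%). The medians of their log2 fold changes were -0.05 and -0.09. Otof, the calcium sensor of the HC synapse, had 715, 772 and 622 CPM in Control, 390, 377 and 293 CPM in IDPN-3wk and 362, 323 and 367 CPM in IDPN-7wk rats. It fell 1.99-fold and 2.00-fold, with adjusted p of 0.00459 and 0.00137 by edgeR, and the IDPN groups differed by -0.01 on the log2 scale (95% interval -0.29 to 0.26).

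Slc17a8, the vesicular glutamate transporter VGLUT3 and also one of the HC markers, had 69.5, 63.4 and 68.4 CPM in Control, 14.5, 43.7 and 15.3 CPM in IDPN-3wk and 14.2, 9.70 and 16.8 CPM in IDPN-7wk rats. The high IDPN-3wk rat was replicate 2, which also had the most Snap25 and Syt6 of that group. At 7 weeks Slc17a8 fell 4.95-fold (adjusted p = 0.00840 by edgeR). Cadps2, a priming factor of dense-core vesicles, fell 4.08-fold at 7 weeks (adjusted p = 0.00828 by edgeR), from 14.8 to 27.2 CPM in Control to 3.72 to 5.70 CPM. Syp (synaptophysin, a synaptic vesicle protein) and Rab3a (a Rab of synaptic vesicles) fell 1.90-fold and 1.52-fold at 7 weeks, with adjusted p of 0.0310 and 0.0454 by edgeR. The call of Rab3a was lost under 10 of 18 alternatives and that of Syp under 6.

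Rab3b, a paralog of Rab3a, had 1.35, 2.51 and 0.591 CPM in Control, 6.79, 3.37 and 5.72 CPM in IDPN-3wk and 11.1, 9.97 and 11.9 CPM in IDPN-7wk rats. The 3 groups did not overlap, and Rab3b rose 7.44-fold at 7 weeks, with a log2 fold change of 2.89 (SE 0.506, adjusted p = 0.00840 by edgeR). Without Control replicate 2 or 3 the log2 fold change at 7 weeks was 3.50 or 2.52, and it passed the test in both. At 3 weeks its log2 fold change was 1.84 (SE 0.490, adjusted p = 0.0984 by edgeR, 0.00518 by DESeq2).

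**Figure D5:**
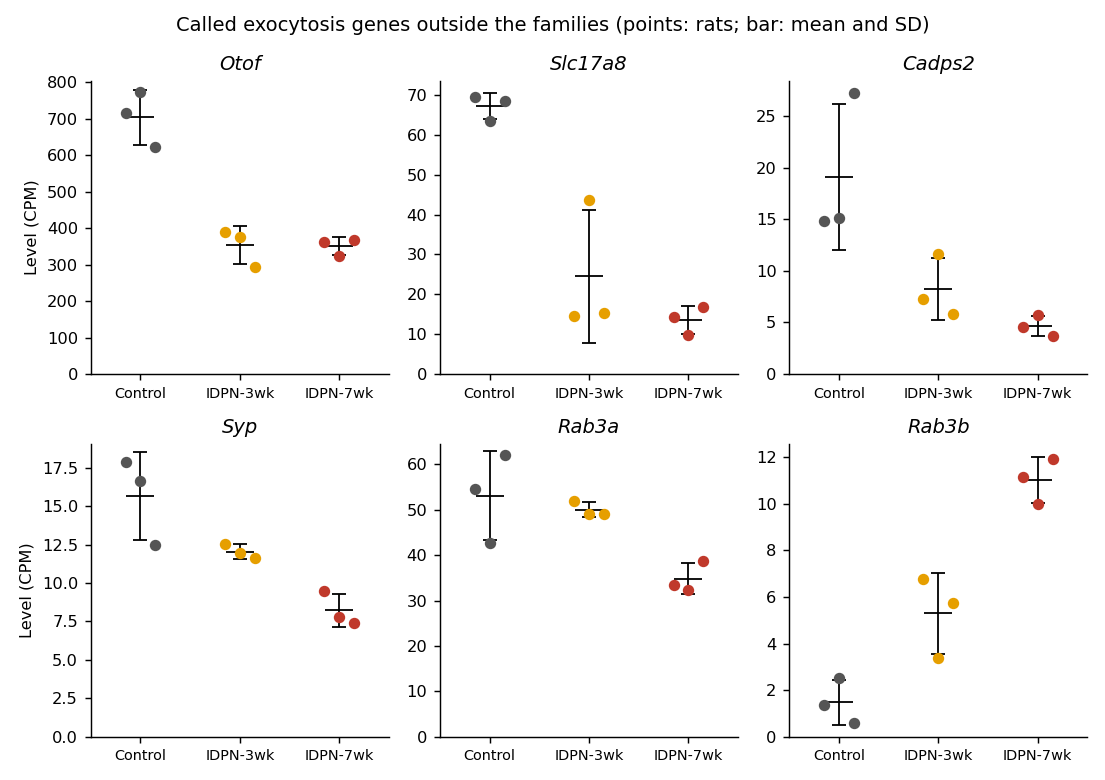
Level in CPM (vertical axes, from 0) of Otof, Slc17a8, Cadps2, Syp, Rab3a and Rab3b, the exocytosis genes outside the families that were called at 7 weeks, in Control, IDPN-3wk and IDPN-7wk rats. Points are single rats, long bars are means of 3 rats and error bars are SD. Rab3b lies at 9.97 to 11.9 CPM in the IDPN-7wk rats and at 0.591 to 2.51 CPM in Control, while the other genes are lower in IDPN-7wk rats.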

How the data were processed

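RNA was sequenced from pooled cristae and utricles of single rats, 3 libraries per group. The authors prepared libraries by SMARTseq2, mapped reads with STAR 2.5.3a to the rat genome and made the deposited table with RSEM 1.3.0 (tool versions per the submitters' processing notes), so the deposited values are expected counts (estimated counts per gene), whole numbers without normalization. RSEM divides reads that fit several genes. The strand used for counting was not given in the sources used here.

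Genes kept by filterByExpr (15517) were normalized by TMM and fitted together over all 9 libraries with edgeR 4.0.16 (R 4.3.3, limma 3.58.1) and tested by its robust quasi-likelihood method, with Benjamini-Hochberg adjustment over all genes in each of 3 comparisons. Intervals are 95% intervals of that fit. Each library is a separate rat, and the smallest two-sided p of an exact permutation test is 0.1 for 3 rats against 3. Replicates were numbered in the order of the records. No library was a repeat of another (chi-square per gene between replicates of a group, 18.7 or more). Alternatives were DESeq2 1.42.0, other size factors, filters, thresholds and samples, and each library left out. A fit without the 3 libraries with fewer genes detected was chosen after seeing the data. The pipeline was tested on simulated data.

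Named were the called members, the neuronal machinery, the member with the smallest p at 7 weeks in families without a call (Cplx2, Vamp2, Stx11, Stxbp6 and Sytl1), Otof and called exocytosis genes. Others named had no such rule and were picked with values in view. The members and lists were chosen with earlier results of these data known. Promoters are from RefSeq (GRCr8). Some genes that meet the naming rule are left out of the text and figures.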

Additional observations from a re-analysis of the deposited data

Results flagged for a closer look

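Syt16, a synaptotagmin without calcium binding, lay on opposite sides of Control in the IDPN groups. Its levels were 0.270, 0.282 and 0.338 CPM in Control, 0.572, 0.370 and 0.369 CPM in IDPN-3wk rats, all higher, and 0.244, 0.206 and 0.203 CPM in IDPN-7wk rats, all lower. The log2 fold change of IDPN-7wk against IDPN-3wk rats was -0.997 (SE 0.863), and edgeR's adjusted p was 0.670. These values rest on few counts in each library, and the groups of 3 were not tested for outlying samples.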

How the results depend on the processing

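No paired analysis was possible because the labels give no replicate numbers that groups share. The titles open with a code whose meaning the labels do not give: all Control rats share a code that no IDPN rat has, so code and treatment cannot be told apart, and another code is shared by 1 IDPN-3wk and 1 IDPN-7wk rat (replicate 1 of each). The count of members called lower at 3 weeks was 1 (Snap25). It was 6 of 55 with DESeq2 (with Syt1, Syt3, Syt6, Syt11 and Sytl1) and 0 with only the libraries of the 2 groups. With each library left out it was 0 to 3. It was 0 without Control replicate 2, 2 (with Syt2) without Control replicate 3 and 3 (with Syt4 among them) without IDPN-3wk replicate 3. Of all genes, 1.21% were called lower in the main fit, 2.88% with DESeq2 and 0.653% with only the 2 groups. The share was 0.387% without Control replicate 2, 0.795% without Control replicate 3 and 2.03% without IDPN-3wk replicate 3. At 7 weeks DESeq2 gave 1 member higher, beside 550 of all 19717 genes. Without the 3 libraries with fewer genes detected, 5 members were lower in place of 3 (with Syt2 and Syt13). Of all genes, 5.44% were called lower in that fit, beside 3.13% in the main fit. Syt2 was also called lower at 7 weeks with DESeq2, with the library set as a covariate and without Control replicate 3. Between IDPN-7wk and IDPN-3wk rats, DESeq2 gave 3 members lower and 1 higher, beside 306 and 278 of all 19717 genes. Leaving out libraries gave 0 to 2 lower and 0 to 2 higher, the 2 in each case without IDPN-3wk replicate 3. In that fit 230 of all 15831 genes were called lower and 215 higher. Called exocytosis genes outside the families numbered 1 at 3 weeks. They were 6 of 76 with DESeq2, beside 567 lower and 250 higher of all 19717 genes. These exocytosis genes were 0 at a fold change above 2 and 2 with the library set as a covariate. With a library left out they were 1 to 4, and 2 without IDPN-3wk replicate 2. They were 4 without IDPN-3wk replicate 3, beside 322 lower and 117 higher of all 15831 genes, and 2 without the 3 libraries. At 7 weeks they were 11 of 71 without those 3, in place of 6, beside 889 lower and 674 higher of all 16350 genes. Between the IDPN groups they were 1 with DESeq2 and 0 to 2 with a library left out (2 without IDPN-3wk replicate 3), in place of 0. The causes were not tested.

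Of the 57 fold changes named, 18 alternatives kept direction and call for 962 values, gained the call for 18 and lost it for 19. The sign turned in 24 values, none of them called. With a library left out, log2 fold changes at 3 weeks ran from -0.767 to 0.534 for Stx1a (0.17 without Control replicate 2), from -0.719 to 0.159 for Cplx1, from -0.222 to 0.0418 for Rab3a and from -0.0759 to 0.136 for Stxbp6. At 7 weeks they ran from -0.0737 to 0.805 for Cplx1. Between the IDPN groups the ranges were -0.189 to 0.0180 for Vamp2, -0.128 to 0.0673 for Otof, -0.442 to 0.0783 for Snap25, -0.182 to 0.242 for Cplx2 and -0.0832 to 0.00426 for Syt2. With the library set as a covariate, Stx1a was at 0.0317 at 3 weeks and Otof at 0.0357 between the IDPN groups. Without the 3 libraries, Cplx1, Stx1a and Rab3a were at 0.290, 0.178 and 0.0144 at 3 weeks, and Snap25 and Otof at 0.0276 and 0.254 between the IDPN groups. Levels near 3 counts limit Syt4, Syt7, Syt12, Syt15 and the Sytl2 entry ENSRNOG00000049878.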
